A study of Mus musculus with 2 samples.

Results

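The nuclear genome encodes most subunits of the 5 enzyme complexes of oxidative phosphorylation. Their messenger RNAs were compared between a line of adult mouse mesenchymal stem cells that lacks Dicer and a line that has it. Genes were chosen by symbol alone in the authors' deposited table: symbols that begin with Nduf (complex I), the symbols Sdha, Sdhb, Sdhc and Sdhd (complex II), and those that begin with Uqcr (complex III), with Cox4i, Cox5, Cox6, Cox7 or Cox8 (complex IV) or with Atp5 (complex V). This gave 89 of 23227 symbols, with 42 in complex I, 4 in complex II, 8 in complex III, 18 in complex IV and 17 in complex V. The prefixes also take in assembly factors of complex I, the NDUFA4 family, which is now placed in complex IV, and a pair of proteins named for ATP synthase that lie outside the enzyme.

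The knockout (KO) line carries Dicer -/- and the wild-type (WT) line Dicer f/f, that is, floxed and intact alleles. Both are immortalised and monoclonal, were grown in the same serum-containing medium and were lysed below confluence. PolyA RNA was sequenced as paired reads after TruSeq preparation. The labels give 1 sample per genotype and each line is 1 clone, so genotype and clone cannot be told apart.

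The deposited means of each genotype resolved into whole read numbers of 2 libraries, which are named the deeper and the shallower library of that genotype by their totals. The labels do not say that they are separate cultures, so the spread between them may be technical. Reads in genes came to 15718369 and 14969532 in the KO libraries and to 15369250 and 14135422 in the WT libraries. Values below are normalised reads, that is, reads divided by the authors' size factor for the library. The labels call the cells both mesenchymal stem cells and fibroblasts. Of 12 markers of that kind, 11 passed the filter on low values. The ratio of KO over WT was below 1 for 6 of the 11 and above 1 for 5. Their sums, in which the markers with most reads weigh most, were 117256 normalised reads in KO and 195524 in WT. The collagen genes Col1a1 (17828 in KO and 41238 in WT, ratio 0.432) and Col1a2 (37792 in KO and 77682 in WT, ratio 0.486) were called lower in KO by the 2-fold rule given below. The part of these collagen genes in the results was not tested. Thy1 was listed at 0 in both genotypes, as was Ndufs5 of complex I; the annotation used for counting is not given in the sources used here, so a listed 0 does not show that a gene was not expressed. Summed markers of other lineages came to 37.9 normalised reads in KO and 33.3 in WT for haematopoietic cells, 23.5 and 16.9 for endothelial cells, 42.5 and 43.0 for epithelial cells, and 14.6 and 17.6 for muscle, with Cd3e, Epcam, Myod1, Myh6 and Myh7 listed at 0. Dicer1 itself had 565 normalised reads in KO and 873 in WT, a ratio of 0.647. The reads do not show which exon is deleted, so the total over the gene checks the label only in part. The table names its columns A and B; they were read as WT and KO from the order of names in the comparison's title, and every direction below rests on that reading.

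In mitochondria, complexes I and II pass electrons from NADH and succinate to ubiquinone, complex III passes them on to cytochrome c, and complex IV passes them to oxygen. Complexes I, III and IV pump protons across the inner membrane, and complex V, the ATP synthase, uses the gradient to make ATP. Each enzyme except complex II mixes nuclear-encoded subunits with subunits from mitochondrial DNA, so most complexes need both genomes for assembly. Cultured mesenchymal stem cells are known for relying largely on glycolysis, and for raising respiration as they differentiate.

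Few messages of these complexes differed by 2-fold between the Dicer-deficient and the Dicer-intact line. Of the 89 genes, 80 had a mean over both genotypes of at least 20 normalised reads and were tested. Sdhd, which encodes a membrane anchor of complex II, was the 1 gene called lower in KO by at least 2-fold, and 0 were called higher. A call needed a ratio of KO over WT of at least 2 or at most 0.5 and a 95% exact counting interval that excluded 1. Over all 11710 tested genes, 8.92% were called higher and 8.56% lower by the same rule.

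The authors' own test gave the same picture. At an adjusted p under 0.1 in the authors' deposited table, 0 of the 80 genes were higher and 1 was lower, again Sdhd, against 5.56% higher and 5.34% lower of all tested genes. In limma on the log2 values of the 4 libraries, 0 passed an adjusted p of 0.05 in either direction, where 4.61% of all tested genes were higher and 4.14% lower. The lowest limma adjusted p was 0.0551, for Atp5l. At an unadjusted limma p under 0.05 there were 5 higher (among them Ndufa9, Ndufs1, Sdha and Uqcrc2) and 15 lower, against 14.9% and 14.2% of all tested genes.

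Below the 2-fold threshold the genes leaned lower. The ratio was below 1 for 51 of the 80 and above 1 for 29, with a median log2 ratio of -0.16, beside -0.01 over all tested genes. At a 1.5-fold threshold, 1 gene was called higher (Ndufa9) and 13 lower, or 16.2%, where 17.3% of all tested genes were higher and 17.9% lower. The share called lower was thus near that of all genes, and the share called higher was below it. The KO libraries both lay under the WT libraries for 33 of the 80 genes (41.2%, against 28.8% of all tested genes), and above them for 15 (18.8%, against 30.4%). The median coding length was 438 bases for the 80 genes and 1401 for all tested genes with a length. Of all tested genes with 300 to 450 coding bases, 41.7% lay under in this way and 17.9% above, shares near those of the 80. As these are bulk RNA samples of cell lines, fewer cells that carry a message and less of it per cell cannot be told apart.

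The lean was uneven over the complexes. Median log2 ratios were -0.10 for the 40 tested genes of complex I, 0.15 for the 4 of complex II, -0.19 for the 8 of complex III, -0.53 for the 11 of complex IV and -0.18 for the 17 of complex V. These medians rest in part on 1 library: without the deeper KO library they were 0.029, 0.25, 0.015, -0.39 and 0.0040 for complexes I to V, and the median over all 80 genes was 0.016. Complex IV was the 1 complex whose median stayed below 0 with each library left out in turn.

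**Figure D1:**
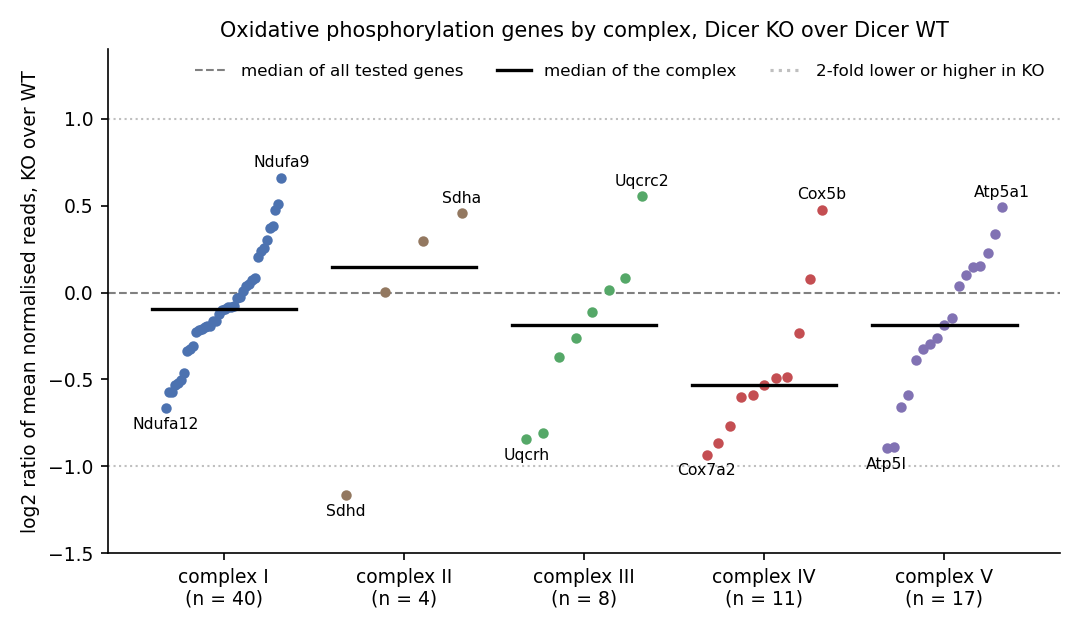
Each point is a tested gene of complex I, II, III, IV or V, placed by its log2 ratio of mean normalised reads in KO over WT; thick lines are complex medians, the dashed line is the median of all tested genes and dotted lines mark a 2-fold difference. Sdhd is the 1 point beyond the lower dotted line, no point passes the upper one, and 9 of the 11 genes of complex IV lie below 0.

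Succinate dehydrogenase, complex II, links the citric acid cycle to the respiratory chain and is the 1 complex made wholly from nuclear genes. Sdhd had 838 and 1397 normalised reads in the deeper and the shallower KO library, against 2387 and 2629 in the WT libraries. Sdhd was lower in either KO library than in either WT library, and the KO libraries differed from each other more than the WT libraries did. The ratio of means was 0.446 (counting interval 0.424 to 0.468), and the authors' deposited table gave it an adjusted p of 0.0191. In limma the adjusted p was 0.0681. Without the deeper KO library the ratio was 0.557 and the 2-fold call was lost, and without the shallower KO library it was 0.334.

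The other genes of this complex did not share the difference. Sdha, the flavoprotein that oxidises succinate, had 4194 and 3878 normalised reads in KO and 3047 and 2832 in WT, a ratio of 1.37. Sdhb, which carries the iron-sulfur clusters, had 1806 in KO and 1801 in WT, a ratio of 1.00, and its libraries overlapped. Sdhc, the second membrane anchor and the partner of SDHD in the membrane, had 1653 in KO and 1347 in WT, a ratio of 1.23. The pair of membrane anchors thus had ratios on opposite sides of 1, although only Sdhd was called. The adjusted p for Sdhc was 0.982 in the authors' test and 0.283 in limma.

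Sdhd lies head to head with Timm8b, a gene for a small chaperone of mitochondrial protein import. In the RefSeq table the annotated ends of both genes are 51 bases apart on chromosome 9, so that 1 window of 300 bases (250 before and 50 after the annotated start of Sdhd) holds both starts. It is shown because it is the start region of the called gene and of its neighbour; the build is GRCm38.p6, minus strand, chr9:50603800-50604099, and capitals mark the letters CTTCCGG, the reverse complement of the ETS motif CCGGAAG.
Sdhd: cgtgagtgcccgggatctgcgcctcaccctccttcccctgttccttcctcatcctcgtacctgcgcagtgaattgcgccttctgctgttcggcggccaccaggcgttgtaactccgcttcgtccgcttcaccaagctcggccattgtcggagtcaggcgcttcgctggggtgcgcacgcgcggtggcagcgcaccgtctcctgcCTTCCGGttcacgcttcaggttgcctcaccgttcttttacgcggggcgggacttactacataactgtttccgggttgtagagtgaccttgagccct
The motif's first base stands at -46 from the annotated start of Sdhd, counted with no base 0. Timm8b had 225 and 320 normalised reads in KO and 456 and 554 in WT. Its libraries did not overlap either, with a ratio of 0.541 (0.486 to 0.600). Timm8b was not called at 2-fold, and the authors' deposited table lists an adjusted p of 0.202 for it.

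Complex IV, cytochrome c oxidase, is built around a core of mitochondrially encoded subunits that holds its haem and copper, with small nuclear-encoded subunits around it. It had the lowest median of the 5 complexes: 9 of its 11 tested genes had a ratio below 1, and for 8 of them the genotypes did not overlap, with KO lower. The background for such non-overlap was 28.8% of all tested genes, and 56.6% of those with a coding length under 300 bases, against 72.7% here, where the median coding length was 258 bases. Among the 18 tested genes of the set under 300 bases, from any complex, it was 13 (72.2%). The share was thus not particular to complex IV. None of the 11 tested genes reached 2-fold. Cox7a2, the widely expressed form of subunit VIIa, had 839 and 1133 normalised reads in KO and 1724 and 2040 in WT, a ratio of 0.524. Cox5a, a nuclear-encoded subunit on the matrix side, had 1041 and 1469 in KO and 2148 and 2424 in WT, a ratio of 0.549. Cox7a2l, known for its part in joining complexes III and IV into supercomplexes, had 775 and 980 in KO and 1527 and 1461 in WT, a ratio of 0.588. For these 3 genes every KO library was well below every WT library, and the authors' deposited table lists adjusted p values of 0.107, 0.149 and 0.249 for them in that order.

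The 3 messages of complex IV with the most normalised reads per 1000 bases of transcript in either genotype, Cox4i1, Cox6a1 and Cox8a, were lower as well. Cox4i1, the subunit at which ATP is known to inhibit the enzyme, had 3923 and 4523 normalised reads in KO and 5686 and 6190 in WT, a ratio of 0.711. Cox6a1 had 2870 in KO and 4143 in WT, a ratio of 0.693, and Cox8a had 2352 in KO and 3568 in WT, a ratio of 0.659. Cox6b1, which links the monomers of the dimer, had 1484 in KO and 1743 in WT, and its libraries overlapped. Cox5b, which binds zinc, lay on the other side. It had 1739 and 2181 normalised reads in KO and 1302 and 1515 in WT, a ratio of 1.39 with no overlap. The adjusted p for Cox5b was 0.681 in the authors' test and 0.188 in limma. The ratios of Cox5a and Cox5b thus lay on opposite sides of 1.

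Several subunits of complex IV have tissue-restricted forms, known mainly from muscle, lung or testis, and 7 such forms fell under the filter of 20 normalised reads. Cox7a1, the form of heart and skeletal muscle, had 34.95 and 18.9 normalised reads in KO and 3.86 and 3.36 in WT. Both KO libraries were above both WT libraries. The ratio was 7.46 (3.40 to 19.4), and the authors' deposited table lists an adjusted p of 0.106. It stayed a minor form: among the summed normalised reads of Cox7a1, Cox7a2 and Cox7a2l, Cox7a1 took 1.42% in KO and 0.107% in WT. Cox6a2, the muscle form of Cox6a1, had 6.05 in KO and 7.70 in WT. Cox4i2 had 0 reads in KO and a mean of 0.964 in WT, Cox7b2 had a mean of 0.498 in KO and 0 in WT, and Cox6b2, Cox8b and Cox8c were listed at 0. Muscle markers summed to 14.6 normalised reads in KO and 17.6 in WT, and their part in the Cox7a1 difference was not tested.

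**Figure D2:**
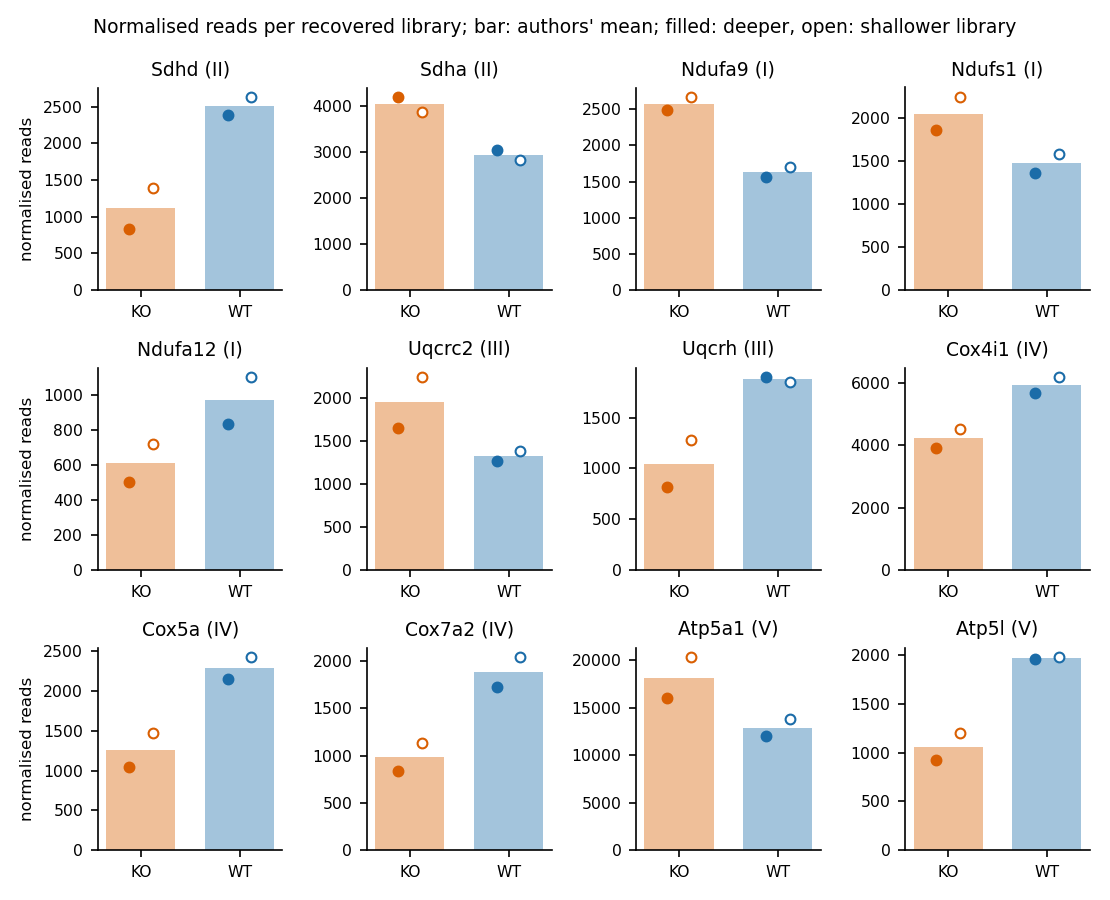
Normalised reads of 12 genes of the 5 complexes (complex in brackets), with KO left and WT right in each panel; bars are the authors' means, filled points the deeper and open points the shallower library. In Sdhd, Ndufa12, Uqcrh, Cox4i1, Cox5a, Cox7a2 and Atp5l both KO points lie below both WT points, and in Sdha, Ndufa9, Ndufs1, Uqcrc2 and Atp5a1 both lie above.

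Complex I, NADH dehydrogenase, had 42 symbols by the rule, of which 40 were tested. Ndufs5, an accessory subunit, was listed at 0 in both genotypes as said above, and Ndufa4l2, a form known to be induced by low oxygen, had a mean of 0.498 normalised reads in KO and 2.09 in WT. The ratio was below 1 for 26 of the 40 and above 1 for 14, and the genotypes did not overlap for 14 genes that were lower in KO (35%, against 28.8% of all tested genes) and 9 that were higher (22.5%, against 30.4%). The median coding length of the 40 was 486 bases. Of all tested genes with 450 to 600 coding bases, 37.2% were lower without overlap and 20.8% higher, shares near those of complex I. The 7 core subunits, which carry the flavin and the iron-sulfur clusters, had a median log2 ratio of -0.07, the 28 accessory subunits -0.09 and the 4 assembly factors -0.33.

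Ndufa9, an accessory subunit where the peripheral arm meets the membrane arm, had the highest ratio of all 80 tested genes. It had 2485 and 2665 normalised reads in KO and 1565 and 1694 in WT. The KO libraries lay above the WT libraries by far more than either pair differed, with a ratio of 1.58 (1.51 to 1.65). The authors' deposited table lists an adjusted p of 0.384, and limma gave 0.0665. Its start region is shown because it is the extreme at the high end, on GRCm38.p6, minus strand, chr6:126849095-126849394, with the YY1 letters AAGATGGC in capitals, whose first base stands at position 30 after the annotated start.
Ndufa9: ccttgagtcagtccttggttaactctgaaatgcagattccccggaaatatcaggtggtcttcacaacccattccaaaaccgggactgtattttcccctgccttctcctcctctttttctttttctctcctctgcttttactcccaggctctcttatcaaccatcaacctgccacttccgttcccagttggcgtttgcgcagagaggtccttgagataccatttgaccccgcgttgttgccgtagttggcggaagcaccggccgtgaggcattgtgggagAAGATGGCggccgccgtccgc
Core subunits of the electron path lay on both sides of WT. Ndufs1, the largest iron-sulfur subunit, had 1857 and 2237 normalised reads in KO and 1357 and 1583 in WT, a ratio of 1.39. The genotypes did not overlap. Ndufv1, which binds NADH and the flavin, had 2235 in KO and 2583 in WT, a ratio of 0.865, and its libraries did not overlap either. The ratios of these core subunits of the same arm thus lay on opposite sides of 1. Limma gave adjusted p values of 0.170 for Ndufs1 and 0.406 for Ndufv1, so neither passed 0.05.

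At the low end of complex I stood Ndufa12, an accessory subunit of the peripheral arm. It had 506 and 719 normalised reads in KO and 839 and 1104 in WT, a ratio of 0.631, and it was the 1 tested gene of this complex called lower at 1.5-fold. Ndufa4, counted here by its prefix, had 2704 and 3055 in KO and 3472 and 3204 in WT, a ratio of 0.863. Grouped with complex IV, where the protein is now placed, it would lie on the same side as most of that complex.

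Complex III, cytochrome bc1, showed the same mix. Uqcrh, the acidic hinge protein that helps bind cytochrome c1 to cytochrome c, had 813 and 1279 normalised reads in KO and 1898 and 1854 in WT, a ratio of 0.557. Uqcr11, one of the smallest subunits, had 586 and 783 in KO and 1133 and 1263 in WT, a ratio of 0.571. Both were called lower at 1.5-fold but not at 2-fold. The ratios of the core proteins, which hold the complex together on the matrix side, lay on opposite sides of 1. Uqcrc1 had 2625 and 3462 in KO and 3913 and 3948 in WT, a ratio of 0.774. Uqcrc2 had 1658 and 2248 in KO and 1271 and 1386 in WT, a ratio of 1.47. Uqcrfs1, the Rieske iron-sulfur protein, had 1650 in KO and 1560 in WT, a ratio of 1.06 with overlapping libraries.

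Complex V held the most abundant message of the set. Per 1000 bases of transcript, Atp5b, the catalytic beta subunit, stood at 15633 normalised reads in KO and 17272 in WT, above every other gene of the 80 in both. As totals, Atp5b had 27280 and 32626 normalised reads in the KO libraries and 31856 and 34331 in the WT libraries, a ratio of 0.905 with overlapping libraries. Atp5a1, the alpha subunit that forms the catalytic head with beta, had 15989 and 20339 in KO and 12032 and 13807 in WT, a ratio of 1.41 with no overlap. Alpha and beta proteins stand in equal number in the head, and of their messages alpha was higher in both KO libraries, while beta did not differ beyond the spread between libraries.

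The smaller subunits of F1, the part of the enzyme with the head, were mixed. Delta and epsilon were lower in both KO libraries than in either WT library. Atp5d, subunit delta, had 1540 and 2173 normalised reads in KO and 2835 and 3019 in WT, a ratio of 0.634 that was called lower at 1.5-fold. Atp5e, subunit epsilon, had 692 and 921 in KO and 964 and 1149 in WT, a ratio of 0.763. Atp5c1, subunit gamma, had a ratio of 1.03 with overlapping libraries.

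The accessory subunits of the membrane part all had ratios below 1 among the 3 tested. Atp5l, subunit g, had 921 and 1197 normalised reads in KO and 1959 and 1980 in WT, a ratio of 0.538. Atp5k, subunit e, had 317 and 461 in KO and 597 and 843 in WT, a ratio of 0.540. Subunits e and g are known for the dimers that shape the cristae, and both genes were lower in both KO libraries than in either WT library. So was Atp5j2, subunit f, with 1556 in KO and 1862 in WT, a ratio of 0.836. The 3 genes Atp5g1, Atp5g2 and Atp5g3 encode the same mature subunit of the c-ring and differ in their import signal. Atp5g1 had 1566 normalised reads in KO and 2361 in WT (ratio 0.663), Atp5g2 had 2649 and 3320 (ratio 0.798) and Atp5g3 had 4169 and 5112 (ratio 0.816). The make-up of the c-ring message pool was alike: Atp5g1 gave 18.7% of it in KO and 21.9% in WT, Atp5g2 31.6% and 30.8%, and Atp5g3 49.7% and 47.4%. Without the deeper KO library the ratio of Atp5g3 was 1.02. Genes of the peripheral stalk (Atp5f1, Atp5h, Atp5j and Atp5o) had a median log2 ratio of 0.13.

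Several of these genes have stretches near-identical to other genes, at which reads could be shared or lost. How the authors counted such reads is not given in the sources used here. In the GENCODE M21 transcripts, 36 of the 80 had a stretch of at least 100 bases at 95% identity or more in another gene, among them Atp5g1 with 19 such genes, Atp5l with 11 and Ndufc1 with 25. Whole transcripts were compared, so such a stretch may lie in a UTR and need not be a copy of the gene. The median log2 ratio was -0.15 for these 36 genes and -0.16 for the 44 with no such stretch. The values of single genes with such a stretch are thus uncertain, while the medians were alike.

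The ratio followed the length of the coding sequence. Across the 80 genes, Spearman's rho between the log2 ratio and the coding length was 0.54, as a description across genes that share the same 4 libraries. Across all 11338 tested genes with a length it was 0.13. Genes of the set with a coding length under 300 bases had a median log2 ratio of -0.26 (n = 18), those of 300 to 450 bases -0.29 (n = 23), those of 450 to 600 bases -0.16 (n = 16), those of 600 to 900 bases 0.08 (n = 11), those of 900 to 1500 bases 0.38 (n = 8) and those of 1500 bases or more 0.47 (n = 4). Over all tested genes the medians in the same bins were -0.40, -0.25, -0.18, -0.05, 0.02 and 0.06. Short messages in general thus had ratios below 1 too, and the long genes of the set lay above long genes in general.

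Set against the median of all tested genes in the same length bin, the 80 genes had a median log2 difference of 0.12, with 32 below and 48 above their bin. For complexes I to V this difference was 0.17, 0.23, 0.14, -0.20 and 0.070. With all 4 libraries complex IV was the 1 complex below genes of like length, with 8 of its 11 genes below their bin. Without the deeper KO library its difference was -0.10, with 7 of 11 below. Without the shallower KO library complex V was also below, at -0.0092 with 9 of 17 genes below, and without the deeper WT library it was 0.012. The difference of the 80 genes was 0.054 and 0.048 in these same comparisons. The part of length in the ratios was not tested beyond these values.

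**Figure D3:**
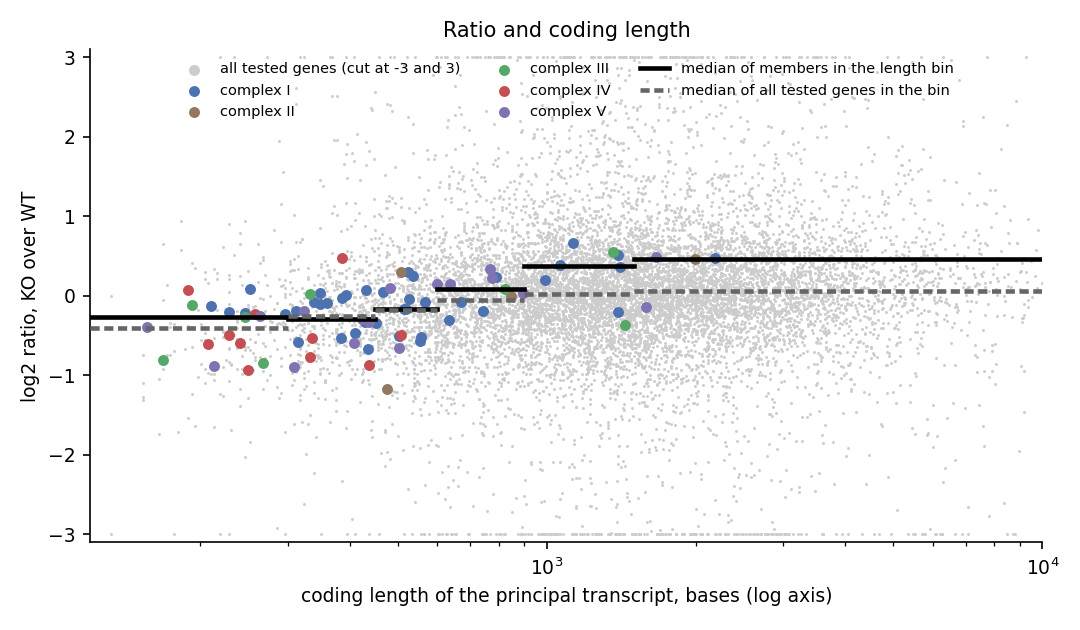
Log2 ratio of KO over WT against coding length in bases (log axis) for all tested genes (grey) and for the genes of complexes I to V (coloured), with solid lines for medians of the set and dashed lines for medians of all tested genes in 6 length bins. The line of all tested genes rises with length and that of the set rises from the second bin on; the set lies below all tested genes only in the bin of 300 to 450 bases.

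Library differences also moved with the result. In KO, the deeper library was below the shallower by a median log2 of -0.34 over the 80 genes, and in WT by -0.09, where all tested genes had medians of 0.02 and 0.01. The set took 0.970% and 1.17% of the reads in genes of the deeper and the shallower KO library, and 1.105% and 1.098% of those of the WT libraries. The share of the set in KO thus lay on both sides of the WT share. For complex IV it was 0.118% and 0.147% in the KO libraries and 0.177% and 0.172% in the WT libraries, so both KO libraries were below both WT libraries. With the deeper libraries alone the median log2 ratio of the set was -0.31, and with the shallower alone -0.04, though the order of genes was much the same (rho 0.91 across the 80 genes).

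**Figure D4:**
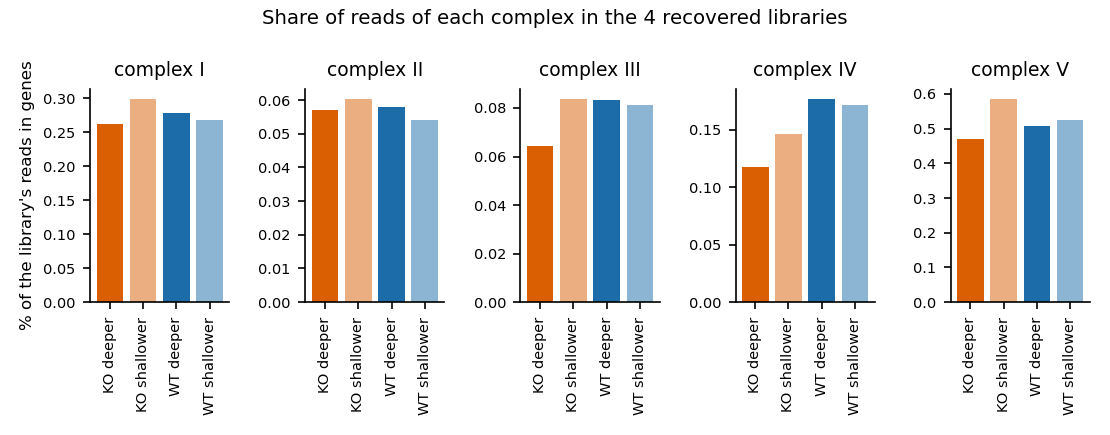
Bars give the percentage of each library's reads in genes that fell on complexes I to V, with the 2 KO libraries left of the 2 WT libraries. Only for complex IV do both KO bars (0.118% and 0.147%) stay below both WT bars (0.177% and 0.172%).

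Genes around the respiratory chain were read from lists of their own. Among 14 carriers and partners, such as the adenine nucleotide carriers and the electron transfer flavoprotein, 0 were called in either direction and the median log2 ratio was -0.26. Cyc1, the haem protein of complex III that the symbol rule leaves out, had 4050 normalised reads in KO and 3336 in WT, a ratio of 1.21. Cycs, cytochrome c itself, had 2603 in KO and 3347 in WT, a ratio of 0.778, and the libraries of both genes overlapped. Assembly factors outside the rule gave 0 calls among 25 tested genes, with a median of -0.04. Genes of mitochondrial DNA maintenance and transcription gave 0 among 11, with a median of -0.01. Of all tested genes, 8.92% were called higher and 8.56% lower. The 13 messages of mitochondrial DNA were not analysed here.

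The citric acid cycle and pyruvate dehydrogenase had a median log2 ratio of 0.33 over 18 genes. Their median coding length was 1359 bases, against 438 for the 80 genes of the complexes. Genes of the complexes with 900 to 1500 coding bases had a median of 0.38, but all tested genes of that length had 0.02. The median of the 18 genes thus lay near that of long genes of the complexes and above that of long genes in general. Of the 18, 12 had a ratio above 1, and 1 was called higher, where 8.92% of all tested genes were called higher. Dld, the lipoamide dehydrogenase shared by the pyruvate and oxoglutarate dehydrogenase complexes, had 3812 and 3478 normalised reads in KO and 1449 and 1404 in WT. Its ratio was 2.56 (2.45 to 2.67), the authors' deposited table lists an adjusted p of 0.00364, and limma gave 0.0174. Its partner subunit Dlat had 1079 in KO and 1973 in WT, a ratio of 0.547 that was not called.

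Regulators of nuclear respiratory genes gave 1 call in each direction among 11 tested genes, a share near that of all tested genes (8.92% higher and 8.56% lower). Both calls were for coactivators of the PGC-1 family, which are known to drive mitochondrial gene expression. Ppargc1b had 138 and 96.5 normalised reads in KO and 14.5 and 22.4 in WT, a ratio of 6.36 (4.45 to 9.34). The authors' deposited table lists an adjusted p of 2.35e-04, and limma gave 0.0324. Ppargc1a had 9.20 and 1.99 in KO and 103 and 19.1 in WT, a ratio of 0.0916 (0.0461 to 0.166). The WT libraries of Ppargc1a differed from each other severalfold, the ratio without the deeper WT library was 0.294 and without the deeper KO library 0.0326. The authors' deposited table lists an adjusted p of 0.576, and limma gave 0.147. The called coactivators thus lay on opposite sides of WT, with Ppargc1b alone past the tests over all genes. Pprc1, a further coactivator of the family, had 2877 normalised reads in KO and 3228 in WT and was not called.

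Transcription factors that act with these coactivators differed less. Nrf1 had 755 normalised reads in KO and 833 in WT (ratio 0.906), Gabpa had 1162 and 1231 (ratio 0.944), Gabpb1 had 650 and 586 (ratio 1.11) and Esrra had 427 and 413 (ratio 1.03). Yy1 had 1674 and 1426 in the KO libraries and 1019 and 969 in the WT libraries, a ratio of 1.56. Hif1a, the oxygen-regulated factor, had 5784 and 3863 in KO and 3434 and 2497 in WT, a ratio of 1.63. Myc had 1048 and 1561 in KO and 1385 and 2891 in WT, a ratio of 0.610 with overlapping libraries. The coactivator Pprc1 had a ratio of 0.891 and Hcfc1 0.855. None of these 9 was called.

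**Figure D5:**
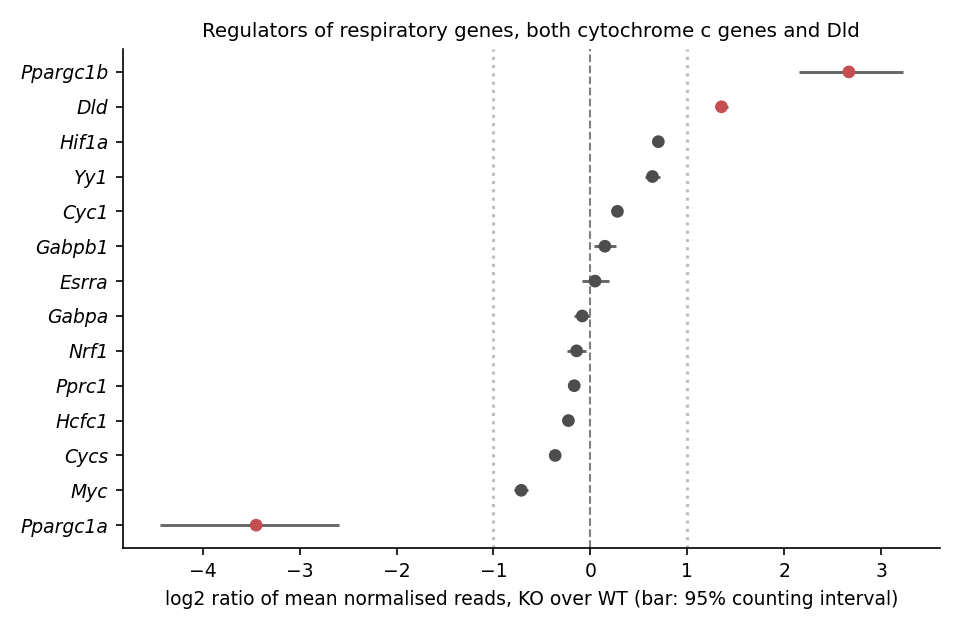
Log2 ratio of mean normalised reads in KO over WT for 11 regulators of respiratory genes, Cyc1, Cycs and Dld. Bars are 95% counting intervals, and red points were called at 2-fold. Ppargc1b (6.36-fold) and Dld (2.56-fold) lie beyond the upper dotted line and Ppargc1a (ratio 0.0916) beyond the lower one.

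Promoters of the set were read for the letters these factors are known to bind. RefSeq start windows of 300 bases on GRCm38.p6 were found for 69 of the 80 tested genes and for 9335 of all tested genes. On either strand, the NRF1 letters GCGCATGC stood in 11 of 69 windows (15.9%, against 5.74% of all), and the YY1 letters AAGATGGC in 10 (14.5%, against 5.01%). The ETS letters CCGGAAG, bound by GABPA, stood in 16 (23.2%, against 19.1%) and the TATA letters TATAAA in 5 (7.25%, against 6.94%). The ETS and YY1 letters can overlap by the bases AAG. Median log2 ratios with and without the letters were -0.33 and -0.13 for NRF1, -0.50 and -0.12 for ETS, and 0.00 and -0.20 for YY1, as a description of these windows. The window of Cox7a2, the lowest gene of complex IV, held none of the 4 motifs, and is shown for contrast with the windows above (GRCm38.p6, minus strand, chr9:79759804-79760103).
Cox7a2: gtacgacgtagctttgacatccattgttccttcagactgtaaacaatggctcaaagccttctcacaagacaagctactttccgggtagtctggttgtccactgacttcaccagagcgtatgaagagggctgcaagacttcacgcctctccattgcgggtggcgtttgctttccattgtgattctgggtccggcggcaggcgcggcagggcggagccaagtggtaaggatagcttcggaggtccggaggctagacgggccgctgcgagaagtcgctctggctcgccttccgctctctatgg

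Dicer makes mature microRNAs, which pair through bases 2 to 8, the seed, with sites in the 3' UTR of their targets. Seeds are in capitals in the RefSeq mature sequences below, shown because their sites occur in genes described above.
mmu-let-7a-5p: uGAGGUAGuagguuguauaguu
mmu-miR-17-5p: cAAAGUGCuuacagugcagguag
mmu-miR-16-5p: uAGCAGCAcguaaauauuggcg
Their sites of 7 bases, in capitals within the 3' UTR of GENCODE M21 transcripts, stood in Cox7b for let-7a, in Sdhd for miR-17 and in Uqcrc1 for miR-16.
Cox7b: cttactgccctCTACCTCgtggttatatt
Sdhd site: acctgggtgcaGCACTTTgattgtgtgcc
Uqcrc1: cataccactccTGCTGCTcagctgtgtgc
Cox7b had 661 normalised reads in KO and 996 in WT, and the values of Sdhd and Uqcrc1 stand above. The other genes with a site for miR-17 were Ndufa10, with 1530 and 1914 normalised reads in KO and 1234 and 1407 in WT (ratio 1.30, no overlap), and Ndufb2 (ratio 0.671). The other genes with a site for miR-16 were Ndufb4 (ratio 0.983) and Atp5g1 (ratio 0.663). Of the genes with a site for let-7a, miR-17 or miR-16, Ndufa10 alone had a ratio above 1. For let-7a, 1 of the 80 genes had a site (1.25%, against 9.34% of 11336 tested genes with a 3' UTR). For miR-17 it was 3 (3.75%, against 13.7%), and for miR-16 also 3 (3.75%, against 22.8%). With miR-199a-3p, miR-21a-5p and miR-210-3p added, 11 of the 80 genes (13.8%) had a site for at least 1 of the 6, against 42.6% of all tested genes. The 3' UTRs of the set were short, with a median of 190 bases, against 1006 bases over all tested genes, and the part of this length in the share with a site was not tested. Genes of the set with a site had a median log2 ratio of -0.19 and those without -0.14, where all tested genes had 0.10 with and -0.06 without.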

How the data were processed

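PolyA RNA of 1 sample per genotype was analysed from the table of the authors' own comparison. Per the file headers, the authors deposited mean normalised read counts (a signal per gene: reads divided by a size factor and averaged over libraries), for either genotype and over both. The deposited ratio (fold) divides KO by WT, and the log2 value deposited beside it is its logarithm. The p-values, raw and adjusted, are those the authors deposited. Per the submitters' processing notes, the tools included TopHat 1.4.0 and the authors' DESeq 1.10.1, with build mm9, in no stated role. Read counter and annotation: not given in the sources used here. WT was taken as condition A and KO as condition B, after the order of names in the comparison's title, and every direction rests on that reading.

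Each mean was solved for the whole read numbers of 2 libraries, and exactly 1 pair fitted for 100% of the genes above 0. The design had foreseen 1 library per genotype, so calls rest on the ratio of means and its 95% exact (Clopper-Pearson) interval, which covers counting error only. Genes with a mean of at least 20 normalised reads were tested. In medians, a genotype with no read stood at a floor of 3 reads over its libraries. As an alternative, limma 3.58.1 (trend, pseudocount of 1, Benjamini-Hochberg adjustment over all tested genes) used the 4 libraries, so its p-values measure the spread between them. Totals, TMM factors, other filters and each library left out were also tried. The code was tested on simulated data. Lengths and 3' UTRs came from GENCODE M21 (GRCm38, not the authors' build), where 87.4% of symbols matched a protein-coding transcript. Start windows and microRNAs came from RefSeq, and stretches near-identical to other genes from blastn 2.17.0. The genes, lists, motifs and microRNAs were chosen with earlier results of these data known. Genes were named by rule when called, extreme or catalytic in their complex, or one of several paralogous forms; Sdhc, Timm8b, Uqcr11, Atp5k, Atp5c1, Atp5d, Atp5e, Atp5j2, Cox7b, Ndufa10, Ndufb2, Ndufb4, Ndufc1, Col1a1, Col1a2 and Dlat were named after their values were seen. A gene that the rule picked and a marker of another lineage are not reported here.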

Additional observations from a re-analysis of the deposited data

How the results depend on the processing

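Calls among the 80 genes depended on the threshold and on single libraries. The count called lower was 13 at 1.5-fold and 0 in limma at an adjusted p under 0.05, and with a library left out it lay between 0 (without the deeper KO library, where Sdhd was lost) and 7 (without the shallower KO library), with 3 without the deeper WT library. At 1.5-fold, 16.2% of the 80 genes were called lower, against 17.9% of all tested genes. The share of all tested genes called with a library left out is not given here, and such a comparison leaves 1 library in a genotype. The counts with a library left out thus cannot be set against genes in general, and no conclusion about the 80 genes is drawn from them. The count called higher was 1 at 1.5-fold and 1 with no filter on low values, which is Cox7a1. Median log2 ratios with a library left out lay between -0.29 and 0.016 for all 80 genes, between -0.24 and 0.029 for complex I, between 0.043 and 0.25 for complex II, between -0.42 and 0.015 for complex III, between -0.78 and -0.39 for complex IV and between -0.40 and 0.0040 for complex V. With the deeper libraries alone the median was -0.23 for complex I, 0.030 for complex II and -0.80 for complex IV, and with the shallower libraries alone it was 0.26 for complex II. Relative to tested genes of like coding length, an alternative chosen after seeing the data, the medians were 0.12 for all 80 genes, 0.17 for complex I, 0.14 for complex III, -0.20 for complex IV and 0.070 for complex V. The cause of these shifts was not tested. Of 84 alternative medians, 67 moved by less than the spread between libraries. Some of the 67 could not move, because the setting left the genes of the complex unchanged, as with no filter for complex II. Others moved by less than that spread yet crossed 0, as complexes III and V did without the deeper KO library. Of 27 genes picked by the naming rule, 24 stayed on the same side of 1 under each of 6 changes of scaling or libraries, and Atp5g3, Sdhb and Uqcrfs1 did not. The rule picks called genes and the highest and lowest ratios from these same values, so this count was partly fixed by the choice. Scaling to library totals moved the median of all tested genes to 0.06 and that of the 80 genes to -0.10, and TMM factors gave -0.02 and -0.17, so the difference stayed at -0.16 and -0.15. No paired analysis was possible because the labels give 1 sample per genotype. With 2 libraries a genotype, the lowest limma adjusted p among the 80 genes was 0.0551.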
